A study of Rattus norvegicus with 12 samples.

Results

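The genes described here are 8 members of the cell death machinery: the apoptosome scaffold Apaf1, the initiator caspases Casp9, Casp2 and Casp8, the executioner Casp6, the caspase inhibitor Xiap, and the mitochondrial proteins Diablo and Aifm1. They were picked by name, as every array spot that is not a control and carries one of these symbols, which gave 8 of the 36174 names on the array, with 18 of its 45598 probes. The cells were N27, a rat line immortalised from midbrain neurons and labelled as dopaminergic, and their RNA was read on Agilent arrays in 1 colour. The 12 samples were 5 wild-type cultures (WT 3, WT 5, WT 6, WT 7 and WT 8) and 7 cultures without Vdac1, removed by CRISPR (KO 1 to KO 7). All were described as grown to 80% confluence, no other treatment was named, and total RNA was used. The comparison asks which of these transcripts differ in cells that lack VDAC1. The sources used here do not say whether the knockout cultures are 1 clone, or whether cultures of a genotype were separate from the start. The p-values therefore measure only the spread between these samples, which may be technical.

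Caspases are proteases that lie idle as precursors until an initiator is brought together on a scaffold. On the mitochondrial route, cytochrome c leaves the space between the mitochondrial membranes and joins Apaf1. The assembled apoptosome recruits caspase-9, and caspase-9 cuts some of the executioners. Xiap blocks caspase-9 and some executioner caspases, and Diablo (also called Smac) leaves mitochondria and displaces Xiap. Aifm1, the apoptosis-inducing factor, is a flavoprotein of the same space that supports respiratory chain assembly in living cells. VDAC1 is the main metabolite channel of the outer membrane that these proteins cross when a cell dies.

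What was measured is the binding of labelled RNA to probes of 60 bases, and genes with several probes were sampled at different places in the transcript. Positions below are the files' own, in build rn4, with the first base of the probe in its transcript; an annotation of that build was not used here, so exon numbers are not given. Casp2 and Casp9 are shown whole at the probes that decide how far each gene can be read. In the Casp2 probe at base 912 (chr4:70041272-70041331, plus strand) the capitals mark the codons of the pentapeptide around the catalytic cysteine of the caspase. This probe was not well above background on any array, while the probe at base 3161 of the same gene was on all 12.

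Casp2 at base 912: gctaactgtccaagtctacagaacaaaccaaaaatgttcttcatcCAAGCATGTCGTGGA
Casp9 at base 521: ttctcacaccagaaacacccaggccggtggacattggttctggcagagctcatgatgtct
Casp9 at base 1213: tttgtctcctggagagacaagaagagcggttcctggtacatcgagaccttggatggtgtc
Aifm1 at base 1456: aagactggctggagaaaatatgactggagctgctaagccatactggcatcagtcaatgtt

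For the probes that carry the other values, the first 30 bases identify the site, and for Casp8 the stretch is one that both of its probes hold, which overlap by 33 bases.

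Casp2 at base 3161: atttgaggcctatggtagttgaggtgctca
Casp6 at base 1317: actttgccttaccttttgtgacactattta
Apaf1 at base 4296: cccctgacttcagaacatatgtgaccgttg
Diablo at base 1236: gttccttttttgaatttctctgctgtatcc
Aifm1 at base 2012: gcaggaatcgaacaagcctctgtgaatatt
Casp8 at bases 1806 and 1833: ctacagttcacatgggttatctgtgcactt

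The 18 probes held 28.3% to 68.3% G or C, with a median of 39.2% against 43.3% over all probes. The accession of 15 of the 18 led to the same symbol in the RefSeq gene table.

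The 75th percentile of the signal differed 5.76-fold between arrays, from 120.1 to 691.8; 42.3% to 53.8% of the spots on an array were flagged as well above background, and 0 were saturated. All levels below are log2 signals minus the array's own 75th percentile, so 0 is that percentile and a negative level lies below it. The knockout arrays lay below every wild-type array at all 3 probes of Vdac1; at the brightest, at base 1724, the levels were 1.98 ± 0.65 (SD, n = 7) and 3.21 ± 0.23 (SD, n = 5), a difference of -1.23 with a limma adjusted p of 0.0562. The probe at base 880 passed, at -1.22 (SE 0.26, limma adjusted p 0.0422), and the one at base 630 did not, at -1.15 (adjusted p 0.0897). The sources used here do not place the edit relative to these probes. Of 9 dopaminergic neuron markers only Th was well above background on all 12 arrays, and Slc6a3, Foxa2 and En1 were so on none. Of 7 general neuron markers 0 were on all arrays and Map2, Snap25, Stmn2 and Nefl were on none. Cd68 among 5 microglia and macrophage markers, and Col1a1 and Pdgfrb among 6 fibroblast markers, were on all 12; none of 5 astrocyte and 4 oligodendrocyte markers was. Markers well above background on fewer than 5 arrays were not tested, and 0 of those tested passed at their brightest probe. There the tested differences, knockout minus wild type, ran from -1.19 (Nr4a2, limma adjusted p 0.143) to 0.24 (Mag). Nr4a2 was well above background on 4 wild-type arrays and 1 knockout array. The untested ran from -1.59 (Col3a1, on 4 wild-type and 0 knockout arrays) to 0.61 (Aif1, on 0 wild-type and 2 knockout arrays). The arrays separated first by the sample numbers in their labels. The first principal component held 36.6% of the variance, with the 5 arrays numbered 1 to 4 (KO 1 to KO 4 and WT 3) between 34.9 and 48.2 and the 7 numbered 5 to 8 between -49.7 and -16.3. In bulk RNA, fewer cells of a type and less RNA per cell cannot be told apart.

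No probe of the 8 genes passed the test of knockout against wild type. Of the 18 probes 14 reached the filter, a signal well above background on 5 or more arrays, and were tested. In all, 0 of the 14 passed an adjusted p of 0.05 in limma, against 1.15% of all 17890 probes tested (0.704% higher in the knockout and 0.442% lower). The count was also 0 with any 1 of the 12 arrays left out. Their adjusted p-values ran from 0.213 to 0.984. At an unadjusted p under 0.05 there was 1 probe, that of Casp9, against 15.8% of all probes. The ranges of the 7 knockout and 5 wild-type arrays overlapped at all 14, and 2.67% of all probes had ranges that did not. The 14 differences, knockout minus wild type, ran from -0.23 to 0.69 with a median of 0.128, 9 above 0 and 5 below; over all probes the median was 0.035 and the 5th and 95th percentiles were -0.59 and 0.61. The median of the members moved with the processing: it was -0.04 with normexp background correction, where that of all probes was -0.043, 0.037 with quantile normalization, 0.036 with the deposited values and 0.013 with the slide as a block. It was 0.048, 0.074 and 0.065 without knockout array 1, 3 or 4 and 0.073 without wild-type array 8. At 8 of the probes, for Casp2, Casp8, Casp6, Diablo and Aifm1, every array was well above background, and at the other 6, for Apaf1, Casp9 and Xiap, some were not.

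**Figure D1:**
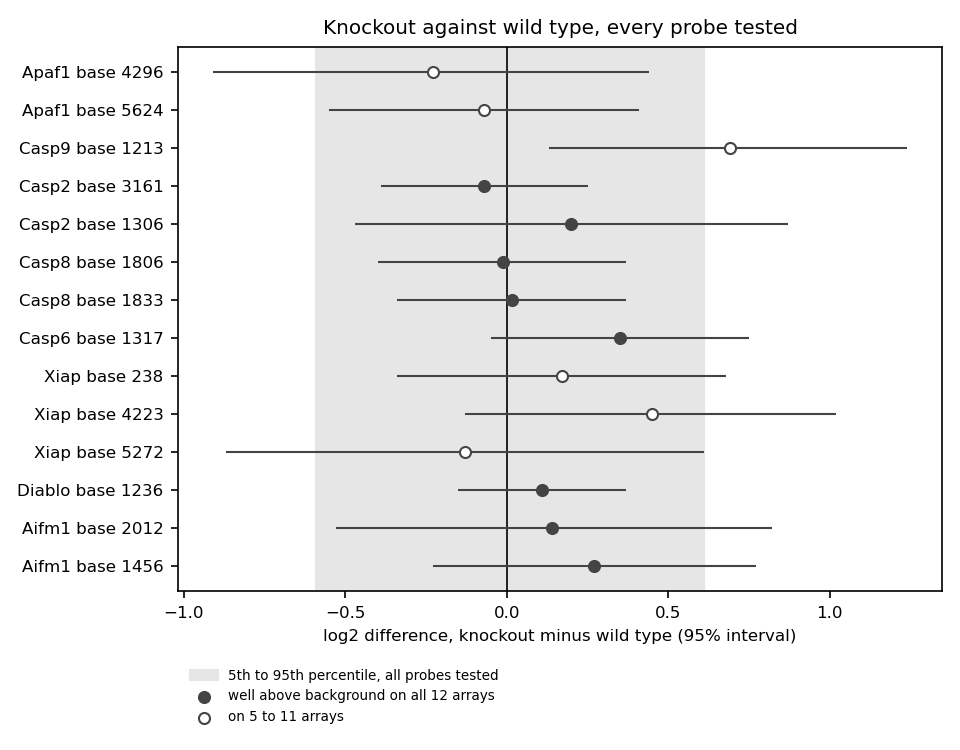
Difference in log2 signal between knockout (7 arrays) and wild type (5 arrays) for each of the 14 probes tested, with its 95% interval; filled points were well above background on all 12 arrays, open points on 5 to 11, and the grey band spans -0.59 to 0.61, the 5th to 95th percentile of all probes tested. The interval leaves out 0 at the Casp9 probe, from 0.13 to 1.24, and holds it at the other 13.

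Apaf1, the scaffold that binds cytochrome c and gathers caspase-9, was read at bases 4296 (chr7:27934664-27934723, minus strand) and 5624 (chr7:27933335-27933395, minus strand). At base 4296, whose sequence is given above, the 7 knockout arrays had a lowest level of -2.98, a median of -2.49 and a highest of -1.91. Among wild-type arrays, WT 3 had -1.29, WT 5 -1.87, WT 6 -2.12, WT 7 -3.45 and WT 8 -2.06. WT 3 and WT 5 stood above all knockout arrays and WT 7 below all of them, so the wild type spanned the knockout range on both sides. The means were -2.39 ± 0.40 (SD, n = 7) and -2.16 ± 0.79 (SD, n = 5), and the difference of -0.23 (SE 0.31, 95% interval -0.91 to 0.44) had a limma adjusted p of 0.762. WT 7 was the 1 array not well above background there. The probe at base 5624 gave -2.76 ± 0.43 (SD, n = 7) and -2.69 ± 0.32 (SD, n = 5), a difference of -0.070 (SE 0.22). Across the 12 arrays the probes had a Pearson r of 0.61, as a description of arrays that share the split by sample number.

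Casp9 encodes the initiator that the apoptosome activates. Its probe at base 1213 (chr5:160719541-160719600, plus strand) was dim, well above background on 4 knockout and 2 wild-type arrays. The knockout levels had a lowest value of -4.52, a median of -4.02 and a highest of -3.40. In wild type the level was -4.70 (WT 3), -4.05 (WT 5), -4.82 (WT 6), -5.50 (WT 7) and -4.24 (WT 8). The highest levels were those of KO 6, KO 5 and KO 7, and the lowest those of WT 7, WT 6 and WT 3, with the groups overlapping between -4.52 and -4.05. The means were -3.97 ± 0.40 (SD, n = 7) and -4.66 ± 0.56 (SD, n = 5). The difference of 0.69 (SE 0.26, 95% interval 0.13 to 1.24), 1.61-fold, had a limma adjusted p of 0.213 and did not pass; 96.4% of all probes tested had a lower difference. With the normexp background correction and its offset of 50 in place of the scanner software's own, the difference was -0.0035. An offset of that size draws differences at so dim a probe towards 0. The value therefore cannot show what the change of background correction alone does. Leaving out 1 array moved the difference between 0.48 (without WT 7, the lowest array) and 0.84 (without WT 5). With the set of sample numbers (1 to 4 or 5 to 8) as a block it was 0.86 (limma adjusted p 0.0703). Within numbers 5 to 8 it was 1.05 (limma adjusted p 0.124), and within numbers 1 to 4, where WT 3 is alone, 0.44. Over 27 alternatives the adjusted p ran from 0.0703 to 0.999. Its other probe, at base 521 (chr5:160706833-160706892, plus strand), was not well above background on any array and gives no reading of the gene.

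Casp2 encodes the initiator that a complex of Pidd1 and Cradd activates. The probe at base 3161 (chr4:70046975-70047034, plus strand) was well above background on every array. The knockout arrays had a lowest level of 1.38, a median of 1.5 and a highest of 2.01. WT 3 stood at 1.57, WT 5 at 1.84, WT 6 at 1.91, WT 7 at 1.43 and WT 8 at 1.80. KO 6 was the highest of the 12 and KO 4 the lowest, so the wild type lay inside the knockout range. The means of 1.64 ± 0.24 (SD, n = 7) and 1.71 ± 0.20 (SD, n = 5) differed by -0.072 (SE 0.15, 95% interval -0.39 to 0.25; limma adjusted p 0.864). At base 1306 (chr4:70045051-70045110, plus strand) the means were -3.13 ± 0.60 (SD, n = 7) and -3.33 ± 0.56 (SD, n = 5), a difference of 0.20 (SE 0.31) in the other direction. KO 5 stood alone there at -1.93, the other knockout arrays lying between -3.72 and -2.96. The probes at bases 3161 and 1306 had a Pearson r of -0.27 over the 12 arrays.

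Casp8 encodes the initiator that death receptors activate through Fadd. Its overlapping probes, at bases 1806 (chr9:57437607-57437666, plus strand) and 1833 (chr9:57437634-57437693, plus strand), share the stretch printed above and are not independent readings. At base 1806 the knockout arrays had a lowest level of -1.80, a median of -1.45 and a highest of -0.97. Among wild-type arrays, WT 3 had -1.72, WT 5 -1.13, WT 6 -1.28, WT 7 -1.75 and WT 8 -1.10. Both extremes were knockout arrays, KO 5 low and KO 7 high. The means were -1.41 ± 0.29 (SD, n = 7) and -1.40 ± 0.32 (SD, n = 5), and the difference was -0.013 (SE 0.18, 95% interval -0.40 to 0.37; limma adjusted p 0.984). The probe at base 1833 gave a difference of 0.017 (SE 0.16), and the 2 probes had a Pearson r of 0.35 over the 12 arrays.

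Casp6 encodes an executioner that cuts nuclear lamins, and its 1 probe lies at base 1317 (chr2:227373580-227373639, plus strand). The knockout arrays had a lowest level of -1.07, a median of -0.48 and a highest of -0.35. In wild type the level was -0.58 (WT 3), -1.23 (WT 5), -1.07 (WT 6), -0.80 (WT 7) and -1.34 (WT 8). The 4 highest arrays were KO 1 to KO 4 and the fifth was WT 3, while KO 5, KO 6 and KO 7 lay among the other wild-type arrays. The means of -0.65 ± 0.31 (SD, n = 7) and -1.0 ± 0.31 (SD, n = 5) differed by 0.35 (SE 0.19, 95% interval -0.048 to 0.75), which did not pass with a limma adjusted p of 0.373. With the set of sample numbers (1 to 4 or 5 to 8) as a block in the fit the difference was 0.15, with an adjusted p of 0.534; the range over 28 alternatives was 0.0379 to 1.

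Xiap, a direct inhibitor of caspase-9 and some executioners, had 5 probes, all dim. The probe at base 238 (chrX:3047225-3047284, minus strand) was well above background on 5 knockout and 3 wild-type arrays. The knockout levels had a lowest value of -4.17, a median of -3.58 and a highest of -2.83. WT 3 stood at -3.63, WT 5 at -3.31, WT 6 at -3.98, WT 7 at -3.96 and WT 8 at -3.89. KO 1 was the highest array and KO 6 the lowest, on both sides of the wild-type range. The means were -3.59 ± 0.50 (SD, n = 7) and -3.75 ± 0.28 (SD, n = 5), and the difference was 0.17 (SE 0.24, 95% interval -0.34 to 0.68; limma adjusted p 0.773). The probes at bases 4223 and 5272 gave differences of 0.45 (SE 0.27) and -0.13 (SE 0.34), with WT 7 the lowest array at both, at -5.79. The probes at bases 2408 and 2933 were well above background on 3 and 1 of the 12 arrays and were not tested.

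Diablo, the mitochondrial antagonist of Xiap, was read at base 1236 (chr12:34209562-34209621, plus strand). The knockout arrays had a lowest level of 1.81, a median of 2.25 and a highest of 2.29. Among wild-type arrays, WT 3 had 2.14, WT 5 2.04, WT 6 2.09, WT 7 2.05 and WT 8 1.95. Of the knockout arrays 5 lay above every wild-type array, KO 1 lay inside the wild-type range and KO 5 below it. The means were 2.16 ± 0.18 (SD, n = 7) and 2.05 ± 0.07 (SD, n = 5), differing by 0.11 (SE 0.12, 95% interval -0.15 to 0.37; limma adjusted p 0.701). This was the narrowest interval of the 14 probes. With the authors' deposited values the difference was 0.01.

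Aifm1 had probes at bases 2012 (chrX:134868895-134868954, minus strand) and 1456 (chrX:134874340-134874399, minus strand), both well above background on every array. At base 2012 the knockout arrays had a lowest level of 0.43, a median of 1.97 and a highest of 2.18. In wild type the level was 1.91 (WT 3), 1.34 (WT 5), 1.09 (WT 6), 1.56 (WT 7) and 1.13 (WT 8). KO 1 to KO 4 lay above every wild-type array, while KO 5 and KO 7 lay below every one and KO 6 among them. The means were 1.55 ± 0.71 (SD, n = 7) and 1.41 ± 0.34 (SD, n = 5), with a difference of 0.14 (SE 0.31, 95% interval -0.53 to 0.82; limma adjusted p 0.868). At base 1456 the knockout arrays ran from -0.82 to 0.49 with a median of 0.24, and the wild-type arrays from -0.57 to 0.04. The difference there was 0.27 (SE 0.23, limma adjusted p 0.606), and the 2 probes had a Pearson r of 0.90 over the 12 arrays, the highest of any pair of probes of one member.

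**Figure D2:**
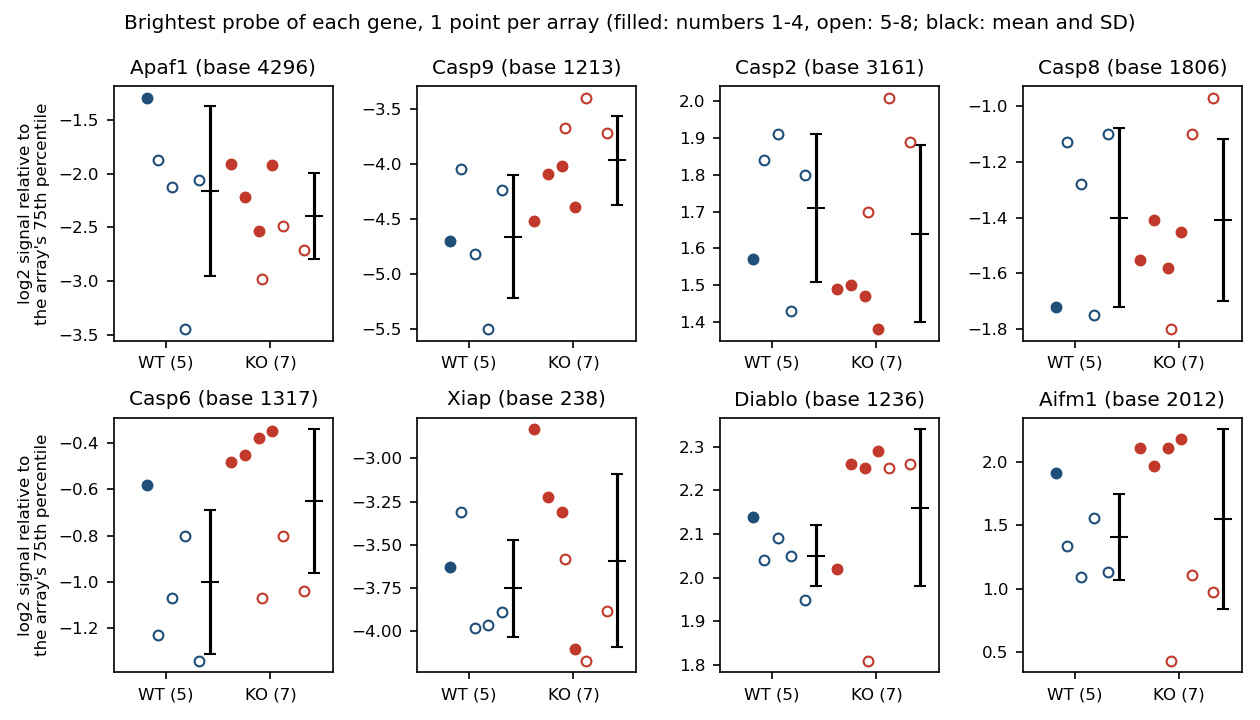
Log2 signal relative to the array's 75th percentile at the brightest probe of each gene, 1 point per array, for wild type (blue, 5 arrays) and knockout (red, 7 arrays), with the mean and SD in black; filled points are sample numbers 1 to 4 and open points 5 to 8, and each panel has its own vertical scale. The groups overlap in all 8 panels, and in the Aifm1 panel the knockout arrays fall apart by sample number, at 1.97 to 2.18 and at 0.43 to 1.11.

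Some of these genes separated by sample number. At 3 of the 14 probes the 5 arrays numbered 1 to 4 did not overlap the 7 numbered 5 to 8, with the first set higher at each: both probes of Aifm1 and the probe of Casp6. Over all probes tested 13.8% had no such overlap, 6.80% with the arrays numbered 1 to 4 higher. At base 2012 of Aifm1 the sets lay at 2.06 ± 0.11 (SD, n = 5) and 1.09 ± 0.35 (SD, n = 7), a difference of 0.96, and at base 1456 at 0.29 ± 0.17 (SD, n = 5) and -0.46 ± 0.20 (SD, n = 7). For Casp6 they lay at -0.45 ± 0.092 (SD, n = 5) and -1.05 ± 0.20 (SD, n = 7), a difference of 0.60. These are descriptions of a split that was known from earlier results of these data, and the sources used here do not say what the numbers stand for.

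Among the knockout arrays alone, KO 1 to KO 4 did not overlap KO 5 to KO 7 at 7 of the 14 probes, against 36.8% of all probes tested. KO 1 to KO 4 were higher at both Aifm1 probes, Casp6, Apaf1 at base 5624 and Xiap at base 4223. They were lower at Casp2 at base 3161 and Casp9 at base 1213. The dim Xiap probe parted the sets only by -4.08 (KO 2) against -4.09 (KO 6), with a difference in means of 0.12. At base 2012 of Aifm1 the difference was 1.26, with KO 1 to KO 4 at 2.09 ± 0.09 (SD, n = 4) and KO 5 to KO 7 at 0.84 ± 0.36 (SD, n = 3). Casp2 at base 3161 went the other way, at 1.46 ± 0.054 (SD, n = 4) and 1.87 ± 0.16 (SD, n = 3). Set 1 to 4 holds 4 of the 7 knockout arrays and 1 of the 5 wild-type arrays, so genotype and number set are unevenly spread over the arrays. With the set as a block the Aifm1 difference at base 2012 was -0.25 with an adjusted p of 0.440, on the other side of 0, and 0 of the 14 probes passed, against 5.10% of all probes. Within the arrays numbered 5 to 8 it was -0.45, with an adjusted p of 0.284, against 0.18 within numbers 1 to 4, with WT 3 the single array of its genotype there. Over all 28 alternatives its adjusted p ran from 0.0479 to 1. The interaction of genotype with number set was tested in limma over all probes: 0 of the 14 member probes passed and 0 had an unadjusted p under 0.05, against 1.70% and 16.4% of all probes. The lowest adjusted p for a member was 0.360, at Aifm1.

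**Figure D3:**
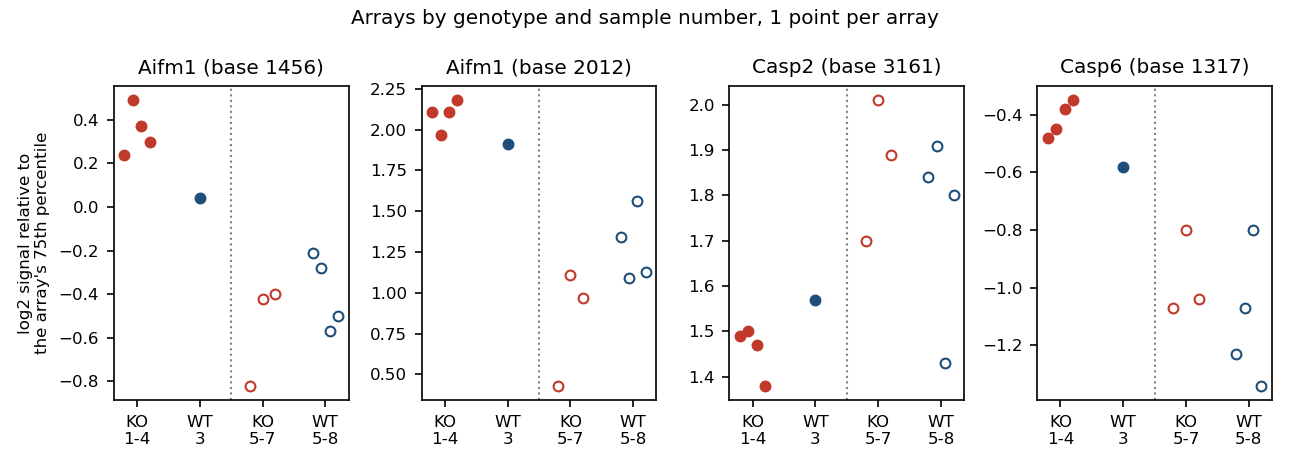
Log2 signal relative to the array's 75th percentile, 1 point per array, for KO 1 to 4, WT 3, KO 5 to 7 and WT 5 to 8, in 4 panels with their own vertical scales: Aifm1 at bases 1456 and 2012, Casp2 at base 3161 and Casp6 at base 1317. Both Aifm1 probes and Casp6 are higher left of the dotted line, by 0.74, 0.96 and 0.60 in the means, and Casp2 is lower there in the knockout.

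The 12 arrays lay on 3 slides, each with both genotypes, and slides 1 and 2 were scanned on another day than slide 3. With slide as a block 0 of the 14 probes passed, against 2.64% of all probes. Within slide 2, which holds KO 1, KO 2, KO 3 and WT 5, 2 member probes passed, both higher in the knockout, against 12.1% of all probes in either direction and 6.18% higher: Casp6, with a difference of 0.80 (adjusted p 0.0379), and Aifm1 at base 2012, with 0.72 (adjusted p 0.0479). On that slide the genotypes are also the number sets, so the effects cannot be told apart, and the lone wild-type array is assumed to vary like the knockout arrays. On slide 1 the same differences were 0.039 and -0.48, and on slide 3 they were 0.22 and -0.023. Casp9 gave 0.91, -0.15 and 1.12 on slides 1, 2 and 3, and Apaf1 at base 4296 gave -0.92, -0.34 and 0.34.

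**Figure D4:**
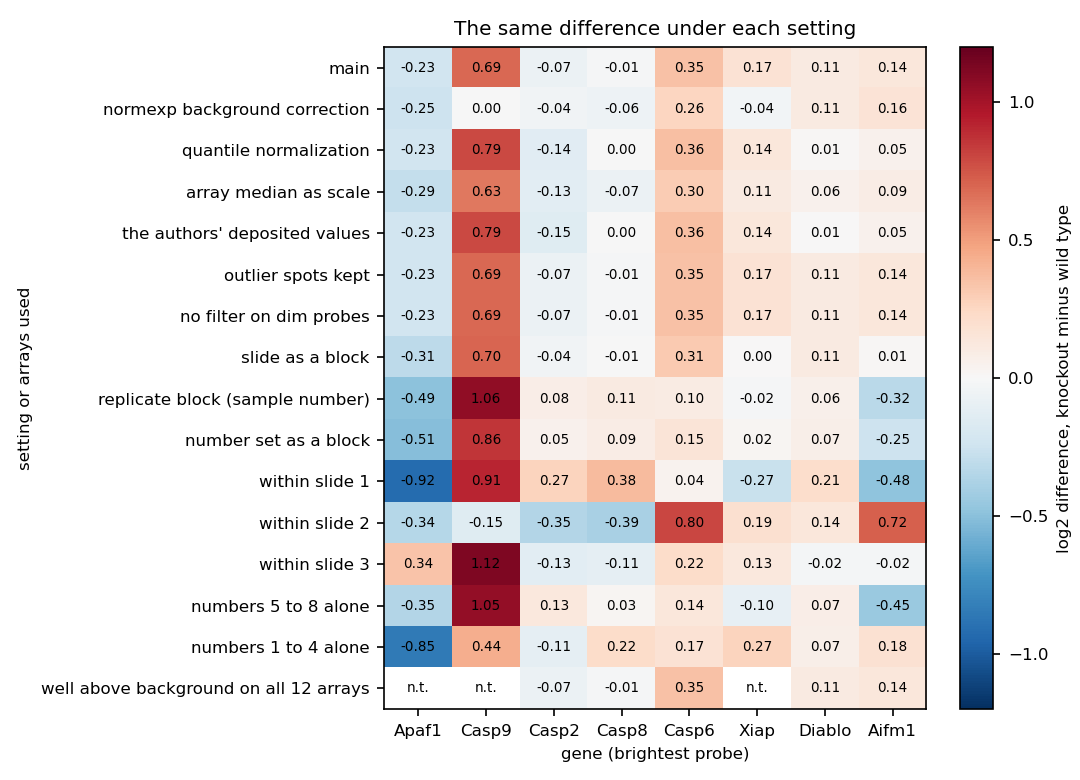
Log2 difference, knockout minus wild type, at the brightest probe of each gene (columns) under each processing setting or subset of arrays (rows), coloured from blue (lower in the knockout) to red (higher); n.t. marks probes not tested under that filter. Casp9 is the one column at or above 0.44 in all rows where it was tested other than normexp and slide 2, and Aifm1 runs from -0.48 on slide 1 to 0.72 on slide 2.

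The named genes whose levels followed each member most closely over the arrays were found by Pearson r with the probes tested. They are given with r within the 7 arrays numbered 5 to 8, since all 12 points share the split by number. For Aifm1 they were Plekha5 (r = 0.976, and 0.951 within the 7) and Rgs10 (0.968 and 0.893). For Casp9 they were Rpp14 (0.963 and 0.980) and Mycbp (0.941 and 0.954), for Casp2 Eif5 (0.959 and 0.920) and Mpp5 (0.955 and 0.923), and for Apaf1 Camsap2 (0.956 and 0.948) and Cct6a-ps3 (0.933 and 0.940). Casp6 was closest to Aacs (0.95 and 0.853) and Bicd2 (0.948 and 0.798), Diablo to Ap3m2 (0.944 and 0.915) and Rdh11 (0.890 and 0.909), Casp8 to Gtf3c3 (0.943 and 0.966) and Mb21d1 (0.937 and 0.946), and Xiap to Gal3st4 (0.894 and 0.75) and Gbp1 (0.879 and 0.643). Each is the top of 17890 probes over 12 points, and no test was made of it. Among the members, Casp6 and Aifm1 had an r of 0.84 over the 12 arrays and 0.19 within numbers 5 to 8, while Casp2 and Casp8 had 0.73 and 0.79. Casp2 and Aifm1 had -0.75 and -0.27.

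Other genes of the same pathway were taken from 5 lists holding 43 names, of which 36 were on the array by name, with 59 probes and 48 tested. One probe, of Hspa8, rose in the knockout and 0 fell, against 0.704% and 0.442% of all probes. At an unadjusted p under 0.05, 11 were higher and 2 lower, against 9.20% and 6.62%. The 11 came from Hspa8, Hspd1, Hspe1, Sept4, Birc3 and Endog. Several each were of Hspa8, Hspd1, Hspe1 and Sept4, so they are not independent readings. Hspd1 and Hspe1 are named after their values were seen. The median difference over the 48 was 0.25, against 0.035 over all probes. The 19 probes of genes that control the initiators, among them chaperones, had a median of 0.288 and held the probe that rose. Hspa8 encodes the constitutive HSP70 chaperone, and at base 523 the knockout had a level of 1.58 ± 0.20 (SD, n = 7) and the wild type one of 0.70 ± 0.46 (SD, n = 5). The difference was 0.88 (SE 0.19, limma adjusted p 0.0484), with the groups overlapping at WT 7, at 1.41. It passed in 6 of 27 alternatives, where the adjusted p ran from 0.021 to 0.892. It no longer passed when any one of KO 1 to KO 7, WT 5, WT 6 or WT 8 was left out, nor under quantile normalization, the median as scale, normexp or the authors' deposited values. The other 3 Hspa8 probes differed by 0.44 to 0.59 and did not pass. Hspa8 has near-identical copies in the rat genome, and its reading is uncertain for that.

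The list of 4 other caspases gave 4 tested probes with a median of -0.512, the lowest of the lists, and 0 passed; 0 were higher and 2 lower at an unadjusted p under 0.05. Casp12, an inflammatory-type caspase of the endoplasmic reticulum, had a knockout level of -2.04 ± 0.36 (SD, n = 7) at base 1161, against a wild-type level of -1.34 ± 0.27 (SD, n = 5). The difference was -0.70 (SE 0.19, limma adjusted p 0.0947), and at base 2400 it was -0.42. Without KO 5, the highest knockout array there, the difference was -0.82 with an adjusted p of 0.0319, the lowest of 28 alternatives, which reached 0.892. Casp4, an inflammatory caspase, had a difference of -0.61 (SE 0.21, limma adjusted p 0.169). WT 3 lay at -0.89 and WT 5 to WT 8 between -0.22 and 0.067. Without WT 3 the difference was -0.78 with an adjusted p of 0.0355, but all wild-type arrays left were then numbered 5 to 8. With the number set as a block it was -0.36 (adjusted p 0.103). Within numbers 5 to 8 it was -0.44 (adjusted p 0.147), and within numbers 1 to 4 it was -0.19. Over its 28 alternatives the difference ran from -1.05 on slide 2 to -0.016 on slide 1. Casp1, named after its values were seen, held the 1 tested probe of the list that was higher, at 0.22 (limma adjusted p 0.715). With the number set as a block it was 0.54 (limma adjusted p 0.0236). Over its 28 alternatives the Casp1 difference ran from -0.23 to 1.11. Neither Casp14 probe was well above background on any array.

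The 9 tested probes of the inhibitor family and its antagonists had a median of 0.186, with 0 passing and 3 higher at an unadjusted p under 0.05. Sept4, whose ARTS isoform binds Xiap, gave 0.67 (SE 0.19, limma adjusted p 0.0954) and 0.62 (adjusted p 0.110) at its 2 probes, which both start at base 1295 and have the same coordinates, so they are not independent readings and the 3 probes higher are from 2 sites, in Sept4 and Birc3. With the number set as a block these were 0.85 (adjusted p 0.00926) and 0.78 (adjusted p 0.0121), the lowest p of each over the alternatives, which reached 0.893. Birc3, the inhibitor cIAP2, gave 0.29 (limma adjusted p 0.290). The 7 probes of other released mitochondrial factors and of DNA fragmentation had a median of 0.315, with 0 passing and 1 higher at an unadjusted p under 0.05. Endog, a mitochondrial nuclease, differed by 0.34 (limma adjusted p 0.294). Aifm2, a relative of Aifm1, differed by 0.31 at base 829 (limma adjusted p 0.379) and by 0.42 at its brighter probe, at base 3356 (adjusted p 0.514). Cycs, cytochrome c itself, is named after its values were seen and differed by -0.012 and 0.27. The 9 tested probes of the death receptor and PIDDosome arm had a median of -0.031, with 0 passing and 0 at an unadjusted p under 0.05 in either direction. Tnfrsf1a, the receptor of tumour necrosis factor, differed by 0.28 (limma adjusted p 0.448) and Fadd by 0.39 (adjusted p 0.599). Cradd, which joins Casp2 to Pidd1, was not well above background on any array.

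**Figure D5:**
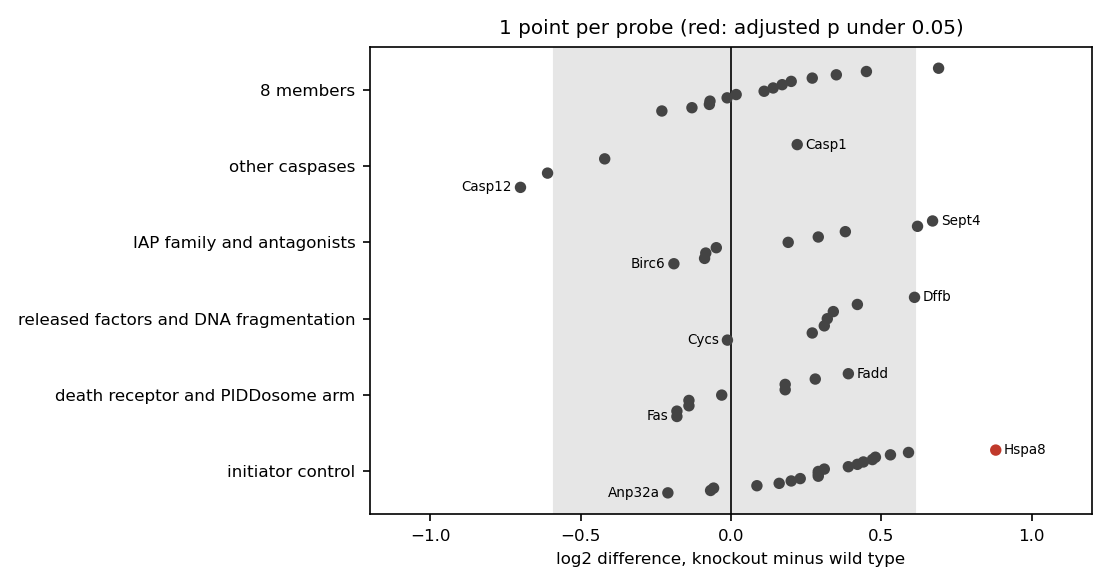
Log2 difference, knockout minus wild type, 1 point per tested probe, for the 8 genes (top) and the 5 lists of other pathway genes, with the lowest or highest gene of each list named; the grey band spans -0.59 to 0.61, the 5th to 95th percentile of all probes tested. The red point, Hspa8 at 0.88, is the one that passed, and the other caspases hold the 3 lowest points, from -0.70 to -0.42.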

How the data were processed

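Trizol was used to extract total RNA and Cy3 to label it, per the labels' protocols. Images were read with Agilent Feature Extraction 10.7 per the submitters' processing notes, while the file headers name 10.1.1.1. Per the file headers, each spot of the deposited scanner files has linear intensity values: a processed signal with the background treated by the software, and the mean signal and median local background, used for normexp (offset 50). The flags among other deposited columns, per the file headers, mark spots well above background, saturated, uneven or population outliers. The authors' deposited table holds log2 values, quantile normalized per the sample titles, with a median of 3.06 in each column and a lowest value of 1.5. Its software and the reason for that floor are not given in the sources used here, and its Spearman correlation with the same array's signal was at least 0.999.

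Of 58717 spots per array that are not controls, uneven and population outlier spots were left out, and repeated spots of a probe were averaged after taking log2, which left 37 probe values missing. Each array's 75th percentile was subtracted, and probes well above background on at least 5 of 12 arrays were tested (17890). Genotypes were compared in R 4.3.3 by limma 3.58.1 (lmFit, eBayes, two-sided, no covariate), and p-values were Benjamini-Hochberg adjusted over all probes tested, with 0.05 as threshold. The scripts were checked on simulated data. The members, lists and tests were chosen with earlier results of these data known, among them the split by sample number. The named genes are all members, Vdac1, from each list the called genes or the 2 with the smallest p, and the 2 closest named genes per member; exceptions are given in the text, and some genes of the lists are left out and not reported here. The settings tried were normexp, quantile, median, the deposited values, outlier spots kept, other filters, 1 probe per gene, slide, replicate number or number set as a block, single slides or number sets, and leaving out each array. The number of arrays limits the precision. Promoter sequences were not used here.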

Additional observations from a re-analysis of the deposited data

Results flagged for a closer look

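Among the 14 tested probes of the 8 genes and the brightest Vdac1 probe, 30 groups of arrays were searched for 1 array far from the rest of its group, and 2 were found, where chance gives about 1 in 20. At the Casp2 probe at base 1306 KO 5 lay at -1.93, a gap of 0.573 of the knockout range. At the Vdac1 probe at base 1724 WT 3 lay at 3.61, above the other wild-type arrays, a gap of 0.821 of their range.

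Of the 48 tested probes of other pathway genes, 1 had an effect of the knockout that differed between the arrays numbered 5 to 8 and those numbered 1 to 4 (limma interaction term, adjusted over all probes), against 1.70% of all probes tested; the second set holds WT 3 as its lone wild-type array, so the value rests on it. Tradd, an adaptor of tumour necrosis factor receptors, gave -1.22 (adjusted p 0.0462): KO 1 to KO 4 lay at 1.27 ± 0.10 (SD, n = 4) and WT 3 at 0.84, and KO 5 to KO 7 lay at 0.27 ± 0.29 (SD, n = 3) and WT 5 to WT 8 at 1.06 ± 0.09 (SD, n = 4). Tradd is named after its values were seen.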

How the results depend on the processing

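In limma, no member probe passed in either direction in 27 of 28 alternatives; within slide 2 there were 2, Casp6 at 0.80 and Aifm1 at 0.72. Directions of the members turned as follows, each with an adjusted p above 0.05: Apaf1 0.34 on slide 3; Casp9 -0.0035 with normexp and -0.15 on slide 2; Casp2 0.051 with the number set as a block, 0.27 on slide 1 and 0.13 in numbers 5 to 8; Casp8 0.088, 0.38 and 0.028 in the same order and 0.22 in numbers 1 to 4; Xiap -0.037 with normexp, -0.27 on slide 1 and -0.095 in numbers 5 to 8; Diablo -0.020 on slide 3; Aifm1 -0.25 with the number set as a block, -0.48 on slide 1, -0.023 on slide 3 and -0.45 in numbers 5 to 8. Leaving out 1 array moved Casp8 between -0.10 and 0.060, and turned no other member. Apaf1 was -0.017 without WT 3 and -0.56 without WT 7, Aifm1 0.04 without KO 4 and 0.33 without KO 5, Xiap 0.043 without KO 1 and 0.28 without WT 5, Casp2 -0.022 without WT 6 and -0.14 without WT 7, and the median of the member probes 0.048 to 0.16. The cause was not tested. The brightest Vdac1 probe passed at -1.35 with quantile normalization and with the deposited values, -1.23 over probes well above background on all 12 arrays, -1.38 and -1.58 with slide or number set as a block, and -1.80 in numbers 5 to 8. The Vdac1 probe at base 880, which passed as reported, did not with quantile normalization (limma adjusted p 0.065) or the deposited values (0.0651), in a range from 0.00558 to 0.892 over the settings with no array left out.

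Sample numbers 3, 5, 6 and 7 occur in both genotypes. The deviations of same-numbered arrays had correlations of 0.445, -0.114, 0.067 and 0.05, in that order. The highest correlations with another wild-type array were 0.002, 0.376, 0.303 and 0.331. These values cannot decide whether same-numbered cultures were paired, since the sources used here do not say what the numbers stand for. At number 3, pairing and the split by number set cannot be told apart, as no other wild-type array shares the set of KO 3. With the number as a replicate block 0 probes passed in either direction over all probes, against 126 higher and 79 lower, and 0 of the pathway lists; Casp2 was 0.084, Casp8 0.11, Xiap -0.017 and Aifm1 -0.32.

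Over all probes the higher and lower counts were 21 and 10 with normexp, 65 and 65 with quantile normalization, 26 and 35 with the median, 64 and 65 with the deposited values, 0 and 0 with no filter, 211 and 132 with the strictest filter, 284 and 188 with the slide block, 528 and 385 with the number set block, 0 and 0 on slides 1 and 3, 1105 and 1063 on slide 2, 360 and 393 in numbers 5 to 8, 47 and 6 in numbers 1 to 4, and 13 to 442 and 4 to 333 with 1 array left out, both highest without WT 3. Higher calls in the pathway lists were 6 with the number set block, 5 on slide 2, 3 in numbers 5 to 8, 0 to 2 with 1 array left out, and 0 with normexp, quantile, median, deposited values, no filter, 1 probe per gene, slides 1 and 3 and numbers 1 to 4; lower calls were 1 on slide 2, 1 in numbers 5 to 8 and 0 to 1 with 1 array left out. For Casp9 and Xiap signal near background limits every value, and the normexp offset of 50 draws differences at such dim probes towards 0.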

Other observations

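A transcript that the array describes as Diablo-like, named there by an Ensembl identifier and not by the symbol, has a probe at base 651 (chr5:148562765-148562824, plus strand) that shares no more than 8 bases in a row with the Diablo probe. It was well above background on all 12 arrays, with a knockout level of -0.87 ± 0.23 (SD, n = 7) against -1.17 ± 0.22 (SD, n = 5) in wild type. The difference of 0.31 (SE 0.15) had a limma adjusted p of 0.337.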
